A study of Mus musculus with 19 samples.

Results

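The genes described here were all protein-coding rows of the count table with a name beginning Itga or Itgb, together with 7 other matrix receptors (Ddr1, Ddr2, Sdc1 to Sdc4 and Dag1) and 11 genes of the adhesion plaque (Ilk, Parva, Lims1, Tln1, Tln2, Vcl, Ptk2, Pxn and the 3 kindlins Fermt1 to Fermt3). The rule chose 49 of 54532 genes by name among protein-coding rows, and it was set with earlier results of these data known. It took 18 integrin alpha subunits, 9 beta subunits and 4 genes that share the name but are not subunits: Itgb1bp1, Itgb1bp2, Itgb3bp and Itgbl1.

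RNA was sequenced from 19 whole obstructed left kidneys of male mice, 8 to 9 weeks old and on a C57BL/6J background, taken on day 12 after unilateral ureteral obstruction (UUO), a model in which a tied ureter leads to tubular injury and fibrosis. Mice were WT or lacked CD5L (CD5L KO), CD5L being a secreted protein made mainly by macrophages, and each received a daily intraperitoneal injection of PBS or of recombinant CD5L (rCD5L), made in CHO-S hamster cells, at 0.5 mg per mouse. The groups were WT PBS (n = 5), WT rCD5L (n = 5), CD5L KO PBS (n = 4) and CD5L KO rCD5L (n = 5). Every kidney was obstructed, so each comparison is between injured kidneys, and unobstructed kidneys were not analysed here. In whole-kidney RNA, fewer cells of a type and less RNA per cell cannot be told apart.

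Integrins are receptors made of an alpha and a beta chain that hold cells to the surrounding matrix and, on leukocytes, to other cells. Inside the cell, talins and kindlins bind the beta tail and switch the receptor on, vinculin and the ILK-PINCH-parvin complex tie it to actin, and focal adhesion kinase with paxillin passes the signal on. In the kidney, α8β1 is known from mesangial cells, myofibroblasts and nephron development, α3β1 from podocytes, α6β4 from epithelia, and αvβ6 and αvβ8 from injured epithelium, where they activate latent TGF-β. The matrix is also read by the discoidin domain receptors, which are collagen-binding tyrosine kinases, by the syndecans, which are heparan sulfate proteoglycans, and by dystroglycan, which binds laminin.

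Totals ranged from 17917491 to 23847090 counts per kidney, and the 49 genes held from 0.342 to 0.681% of them. Cd5l was listed at 0 counts in all CD5L KO kidneys and at 3 to 15 counts in the WT kidneys, so the genotype labels fit the counts but the level of Cd5l itself was near the limit of detection. Within the group CD5L KO rCD5L, replicate 4 stood apart and replicate 3 did so for some genes. In replicate 4 the summed level of 10 proximal tubule markers was 52860 CPM (counts scaled to library size), against 3486 to 9908 in the other kidneys, and that of 12 macrophage markers was 1071 against 2514 to 3982. Values that rest on these kidneys are therefore given with and without them.

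Per unit of transcript length, the level of the genes spanned 4 orders of magnitude in WT PBS kidneys. Levels were taken as the deposited FPKM, which scale counts by gene length and library size. Itgb1, the shared beta chain of the matrix-binding integrins, was the highest, with a median of 192 FPKM (174 to 206 over 5 kidneys). It was followed by Sdc4 at 125, Itgb5, a partner of αv, at 99.4, Ddr1 at 44.9 and Dag1 at 36.5. These first 4 genes were separated from the next in order by ranges that did not overlap. The talin gene Tln1 (30.8), Sdc1 (29.8) and Itgav (29.1) had overlapping ranges and cannot be ordered. Of 49 genes, 23 had a median of at least 10 FPKM, 20 lay from 1 to under 10, and 6 were under 1. The gene length in the count table equalled the exonic length in GENCODE for 48 of the 49. Fermt3 is listed with 2587 bases against 5784, so its median of 13.5 FPKM would be 6.04 on the GENCODE length, and its value with the length offset below uses the listed length. The beta2 leukocyte chain Itgb2 reached 19.4 FPKM, whereas the alpha chains it pairs with, Itgax, Itgam and Itgal, had 9.85, 3.48 and 2.26.

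The 6 lowest genes included the alpha chain Itgad (0 to 5 counts per kidney) and Itgb1bp2, also called melusin and known from muscle (1 to 10 counts), which fell below the filter on low counts and were not tested. Ilk, a pseudokinase that is abundant in most tissues, had 12 to 45 counts per kidney and a median of 0.455 FPKM in WT PBS. Of its exonic bases, 89.7% are shared with Taf10 and Rrp8 on the opposite strand, and the sources used here do not state whether counting used strand, so the Ilk value is uncertain. Shared bases also made up 68.7% of Itgam, 33.5% of Itga10 and 25.5% of Vcl, whereas 31 of the 49 genes shared none.

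**Figure D1:**
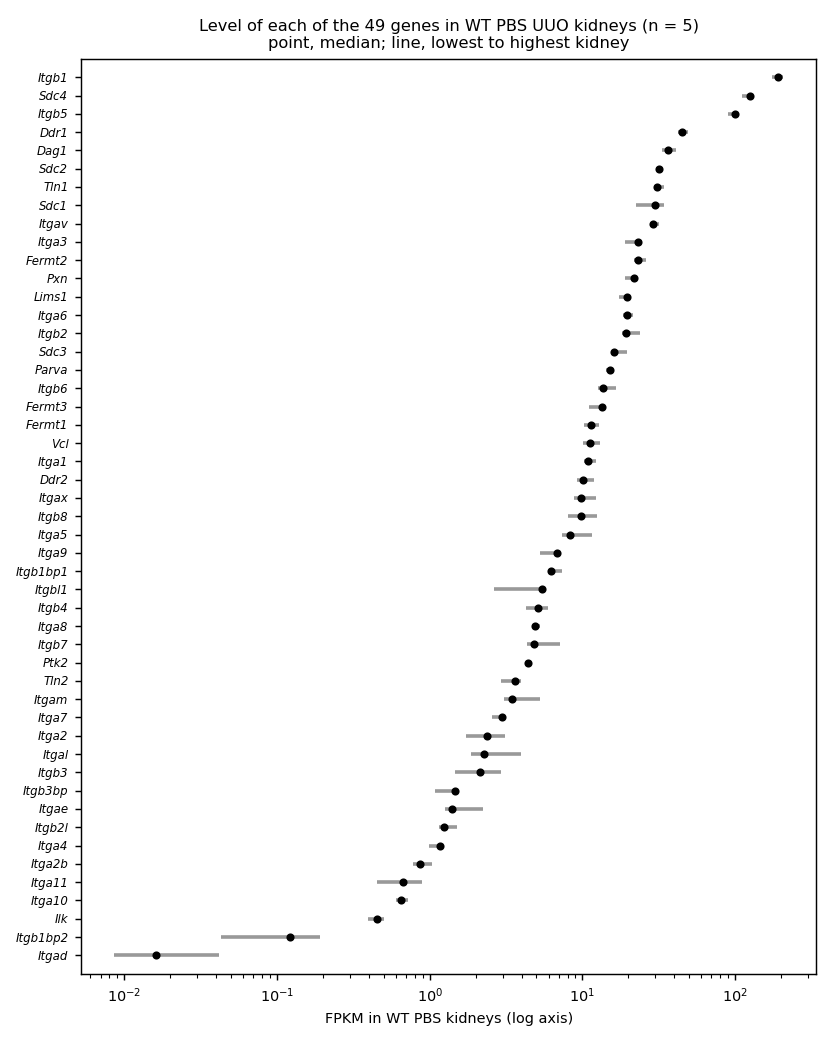
Level of the 49 genes in WT PBS UUO kidneys, in FPKM on a log axis, with the median as a point and the lowest to highest of 5 kidneys as a line. Itgb1 is the highest at a median of 192 FPKM, and 6 genes lie under 1 FPKM.

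The comparison of CD5L KO with WT kidneys, both given PBS, addresses whether loss of CD5L goes with a difference in the adhesion machinery of the obstructed kidney. In the knockout 9 genes fell, namely Itga8, Vcl, Itga9, Tln1, Ptk2, Ddr2, Itgb5, Itga7 and Fermt3, and 1 rose, Itgb3bp. The changes of the 3 genes with the smallest p were between -0.63 and -0.71 on the log2 scale, and those of the other 6 that fell were between -0.23 and -0.35. These 10 genes were 21.3% of the 47 tested, where 10.5% of all 17579 genes tested were called at an adjusted p under 0.05 by the quasi-likelihood test of edgeR (Benjamini-Hochberg over all genes tested), which gives every adjusted p below unless another tool is named. The share called lower among all genes was 5.4% and the share called higher was 5.13%. Of the 47 genes, 40 had a negative fold change (85.1%, against 50.7% of all genes), and the median was -0.20 against a median near 0 (-0.0046) for all genes. At an unadjusted p under 0.05 there were 23 of the 47, where all genes gave 26.6%. DESeq2 called 17 of them, the same 10 and, all lower, Itgb3, Parva, Itgb2, Itga6, Fermt2, Itga5 and Pxn, where it called 17.8% of all genes.

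Integrin α8, encoded by Itga8 (ENSMUSG00000026768, chromosome 2, 12106632 to 12301922, minus strand, GRCm38), binds RGD motifs and its main kidney ligand is nephronectin. Its level was 43.6, 42.3, 44.7, 46.9 and 42.7 CPM in the WT PBS kidneys and 27.7, 31.8, 22.9 and 25.4 CPM in the CD5L KO PBS kidneys. All 4 knockout kidneys lay below all 5 WT kidneys. The log2 fold change was -0.71 (SE 0.0859, adjusted p = 0.00464). The other RGD-binding alpha chains did not pass the test: Itga5, the fibronectin receptor, was at -0.34 (adjusted p = 0.0817), Itgav at -0.02 (adjusted p = 0.863) and the platelet chain Itga2b at 0.19 (adjusted p = 0.418). The Itgav level overlapped between groups, at 366, 362, 386, 379 and 414 CPM in WT PBS and 362, 372, 361 and 416 CPM in CD5L KO PBS.

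Integrin α9 pairs with β1 and binds tenascin-C, osteopontin and EMILIN1. Itga9 (ENSMUSG00000039115, chromosome 9, 118606690 to 118901003, plus strand) was at 49.5, 65.1, 54.3, 63.6 and 65.0 CPM in WT PBS kidneys and at 38.9, 41.8, 39.5 and 34.3 CPM in CD5L KO PBS kidneys. The groups did not overlap, and the log2 fold change was -0.63 (SE 0.0918, adjusted p = 0.00497). Its relative α4, encoded by Itga4 and known from leukocytes, was at -0.17 (adjusted p = 0.449). Among the laminin-binding chains, Itga7, known from muscle and vascular smooth muscle, fell, with 29.7, 29.1, 27.0, 29.4 and 25.3 CPM in WT PBS and 21.0, 24.1, 21.1 and 24.7 CPM in CD5L KO PBS. Its change was -0.31 (SE 0.0780, adjusted p = 0.0257), and the highest knockout kidney lay just under the lowest WT kidney. Itga6 was at -0.21 (adjusted p = 0.0728) and Itga3 at -0.11 (adjusted p = 0.472). None of the 4 collagen-binding chains Itga1, Itga2, Itga10 and Itga11 passed the test, and all 4 had negative fold changes, between -0.16 and -0.44.

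Of the 6 beta chains outside leukocytes, 1 fell. Itgb5, which pairs with αv and binds vitronectin, was at 431, 408, 389.7, 432 and 431 CPM in WT PBS and at 365, 379, 355 and 334 CPM in CD5L KO PBS, with no overlap and a log2 fold change of -0.23 (SE 0.0577, adjusted p = 0.0254). Itgb1 was at 969, 1021, 862, 952 and 946 CPM against 961, 951, 933 and 921 CPM, and its log2 fold change was -0.02 (SE 0.0589, adjusted p = 0.862). The groups overlapped. Itgb8 was at -0.01 (adjusted p = 0.980). The αvβ6 chain Itgb6 was at 119, 118, 143, 109 and 131 CPM in WT PBS and at 142, 146, 128 and 136 CPM in CD5L KO PBS, a log2 fold change of 0.15 (SE 0.0767, adjusted p = 0.236). Itgb3, the β3 chain of vascular cells and platelets, was at -0.61 with the widest error of this group (SE 0.189, adjusted p = 0.0575). DESeq2 called Itgb3 (adjusted p = 0.0116), as did edgeR with no filter on low counts (adjusted p = 0.029).

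All 7 tested leukocyte chains had negative fold changes and none passed the edgeR test. DESeq2 called Itgb2 (adjusted p = 0.0217), as did edgeR with no filter on low counts (adjusted p = 0.0376). Itgb2 was at 89.0, 85.8, 67.3, 70.1 and 72.1 CPM in WT PBS and at 64.2, 62.2, 43.5 and 66.7 CPM in CD5L KO PBS, so that the groups did not overlap while the adjusted p of 0.0696 missed the threshold (log2 fold change -0.39, SE 0.124). Itgam, the CD11b chain of macrophages and neutrophils, was at 19.7, 32.2, 18.8, 21.3 and 22.1 CPM against 19.3, 20.7, 16.8 and 14.2 CPM (log2 fold change -0.37, adjusted p = 0.160), and the groups overlapped. Of the 12 macrophage markers, Csf1r and Mertk were called lower and Cd14 higher (with the length offset 2 lower and 0 higher), where 5.4% of all genes were called lower and 5.13% higher. The summed level of the list overlapped, at 2697 to 3472 CPM in WT PBS and 2514 to 3982 CPM in CD5L KO PBS. The part of leukocyte number in these values was not tested.

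In the adhesion plaque, vinculin, talin-1 and the leukocyte kindlin fell. Vcl (ENSMUSG00000021823, chromosome 14, 20929398 to 21033676, plus strand) encodes vinculin, which binds talin and actin under tension. Its level was 102, 112, 100.3, 122 and 131 CPM in WT PBS and 71.0, 68.7, 73.2 and 80.7 CPM in CD5L KO PBS, with no overlap. The log2 fold change was -0.64 (SE 0.0854, adjusted p = 0.00470). Tln1 (ENSMUSG00000028465, chromosome 4, 43531519 to 43562691, minus strand) encodes the talin of most non-muscle cells. It was at 354, 367, 351, 409 and 374 CPM against 300.0, 297, 282 and 313 CPM, again without overlap, at a log2 fold change of -0.32 (SE 0.0598, adjusted p = 0.00819). Fermt3, the kindlin of blood cells, was at 43.1, 43.9, 34.9, 42.5 and 38.4 CPM against 37.5, 32.4, 28.6 and 29.2 CPM. The Fermt3 groups overlapped, and the call was the weakest of the 10 (log2 fold change -0.35, SE 0.0946, adjusted p = 0.0349). The other members of this set were at -0.20 (Fermt2, adjusted p = 0.0656), -0.23 (Tln2, adjusted p = 0.0965) and 0.04 (Fermt1, adjusted p = 0.812).

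Ptk2 (ENSMUSG00000022607, chromosome 15, 73205102 to 73423280, minus strand) encodes focal adhesion kinase. It had a narrow spread, with 62.8, 63.0, 63.0, 63.1 and 64.5 CPM in WT PBS and 53.3, 57.5, 52.0 and 53.7 CPM in CD5L KO PBS. Each knockout kidney was below each WT kidney, and the log2 fold change was -0.23 (SE 0.0487, adjusted p = 0.0127). Its partner paxillin, Pxn, was at -0.21 (adjusted p = 0.0781). The α-parvin gene Parva was at -0.16 with no overlap between groups (adjusted p = 0.0644), the PINCH gene Lims1 at -0.08 (adjusted p = 0.471), and Ilk, with the limits given above, was at 1.55, 1.42, 1.32, 1.67 and 1.52 CPM against 0.903, 0.952, 0.607 and 1.19 CPM (log2 fold change -0.71, SE 0.239, adjusted p = 0.0781).

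Among the non-integrin receptors, the collagen receptors Ddr1 and Ddr2 had fold changes of opposite sign. Ddr2, the form of fibroblasts and other mesenchymal cells, was at 121, 113, 104, 134 and 107 CPM in WT PBS and at 97.7, 94.1, 89.3 and 96.5 CPM in CD5L KO PBS, with no overlap (log2 fold change -0.30, SE 0.0729, adjusted p = 0.0220). Ddr1, the epithelial form, was at 246, 258, 284, 261 and 273 CPM against 280.1, 266, 331 and 308 CPM, which overlapped (log2 fold change 0.16, SE 0.0694, adjusted p = 0.170). Sdc1 was at -0.16 (adjusted p = 0.395), and neither the other syndecans nor Dag1 passed the test, at fold changes between -0.08 and -0.13. Itgb3bp, the single gene that rose, encodes the centromere protein CENP-R and is no integrin subunit. It was at 8.28, 8.37, 6.72, 8.33 and 6.13 CPM in WT PBS and at 10.6, 9.87, 10.8 and 10.7 CPM in CD5L KO PBS (log2 fold change 0.46, SE 0.119, adjusted p = 0.0283).

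**Figure D2:**
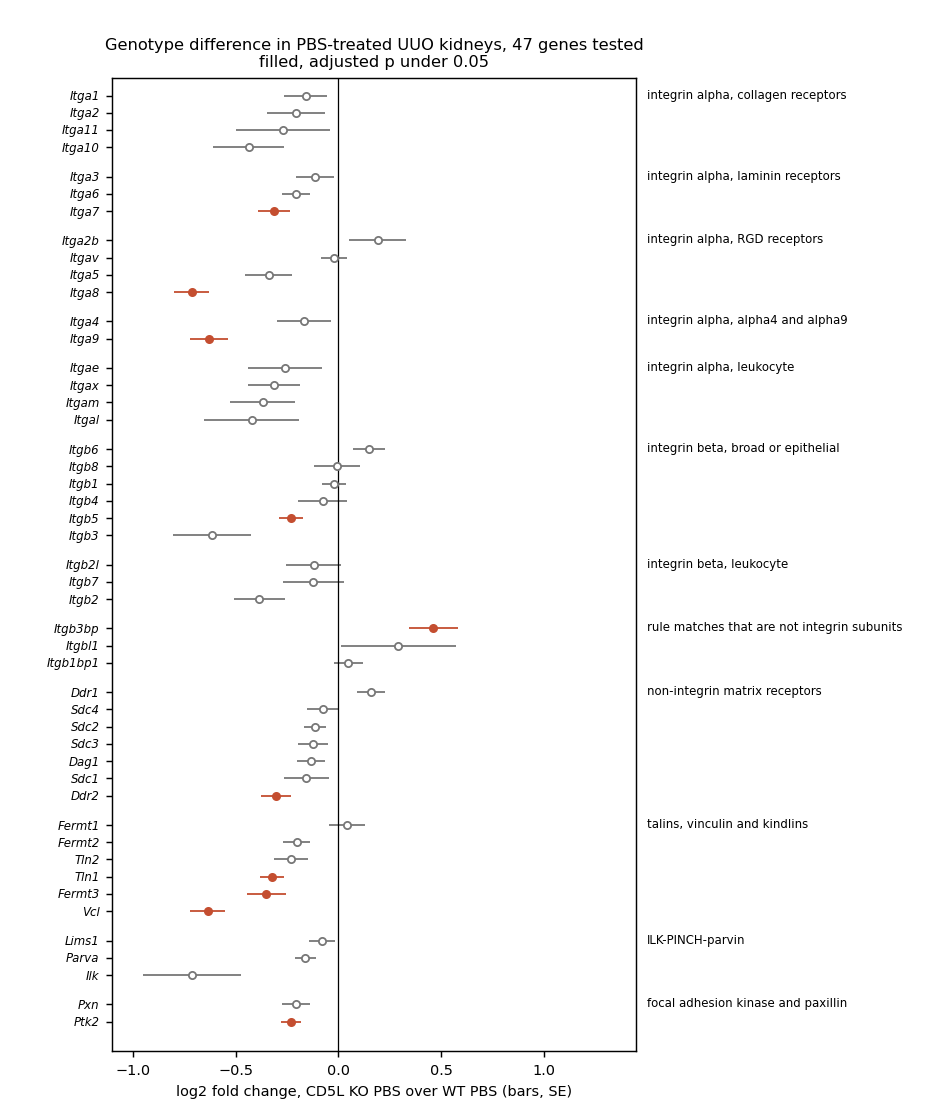
Log2 fold change of CD5L KO PBS over WT PBS for the 47 genes tested, grouped by role, with SE as bars and filled points for an adjusted p under 0.05. Of the filled points, 9 lie left of 0, from -0.71 (Itga8) to -0.23 (Itgb5), and 1 lies right of it (Itgb3bp at 0.46).

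Levels of the 2 genotypes did not overlap between PBS-treated groups for 12 of the 47 genes, 11 of them lower in the knockout, where 14.1% of all genes tested did not overlap (6.75% lower and 7.35% higher in the knockout). The number called differed between fits. Without CD5L KO PBS replicate 3 it was 6, where 1316 of 17882 genes were called. Over the 9 kidneys left out in turn it was 6 to 13. The 13 came without WT PBS replicate 1 (1731 of 17407 genes called) or replicate 3 (2062 of 17492). In a fit of all 19 kidneys, which also changed the genes tested and the scaling, it was 1 (Vcl, adjusted p = 0.0278), where 0.065% of all genes were called. Itga8, Vcl, Itga9, Tln1 and Ptk2 kept an adjusted p under 0.05 whichever kidney was left out, whereas Ddr2, Itgb5, Itga7, Itgb3bp and Fermt3 did not (largest adjusted p 0.0595, 0.0763, 0.0767, 0.0692 and 0.0978).

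Fold changes also moved with gene length. Across all genes tested under PBS, Spearman's rho between exonic length and log2 fold change was -0.28, and the median log2 fold change went from 0.18 in the shortest decile of genes to -0.10 in the longest. The integrin and adhesion genes are long, with a median length of 5699 bases against 3808 bases for all genes. Among genes of at least 5000 bases, 10.48% were called lower, and 7 of 29 of the adhesion genes were. With the length trend removed by an offset per gene, 7 of 47 were called (7.34% of all genes) and the median moved from -0.20 to -0.13. Itga8, Vcl, Itga9 and Tln1 remained among the genes called (log2 fold changes -0.65, -0.57, -0.56 and -0.24), as did Itgb5, Fermt3 and Itgb3bp, whereas Ptk2 (adjusted p = 0.0976), Ddr2 (0.0726) and Itga7 (0.0717) did not. The part of this trend in the difference between genotypes was not tested further.

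**Figure D3:**
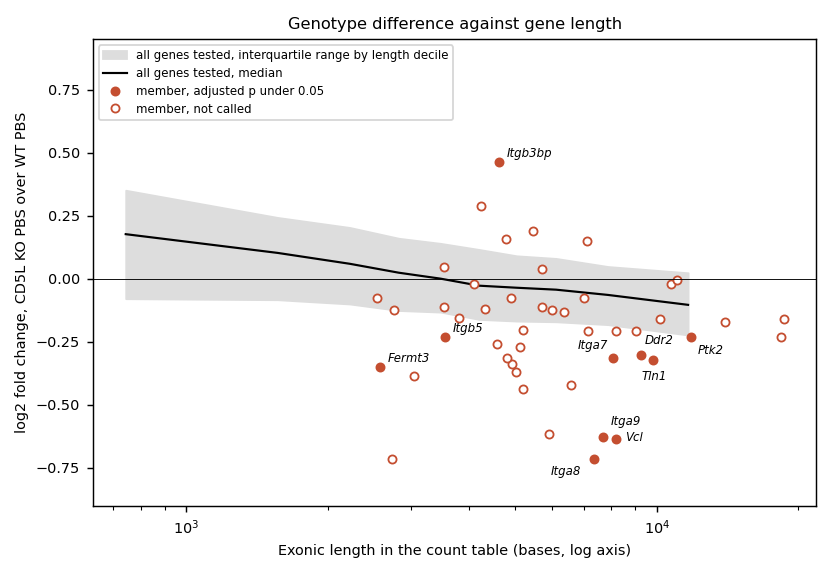
Log2 fold change of CD5L KO PBS over WT PBS against exonic length in bases on a log axis. The line and band give the median and the middle 50% of all genes by length decile, falling from 0.18 to -0.10, and the points are the 47 genes tested, with Itga8, Vcl and Itga9 well below the band.

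Of 28 matrix genes listed as ligands of these receptors (collagens, laminins, fibronectin, tenascin-C, nephronectin and others), 21 fell, 1 rose and 6 did not pass the test, where 5.4% of all genes were called lower and 5.13% higher. The median log2 fold change was -0.45, and with the length offset 17 fell and the median was -0.38. The smallest p-values were those of Col4a2, a chain of basement membrane collagen, at -0.53 (adjusted p = 0.00470), Emilin1, an elastic fibre glycoprotein, at -0.47 (adjusted p = 0.00470), and Thbs1, thrombospondin-1, at -0.65 (adjusted p = 0.00497). For the pairs named above, chosen after their values were seen, Npnt, the nephronectin gene, was at 180.5 ± 11.1 CPM in CD5L KO PBS (SD, n = 4) and 232 ± 21.9 CPM in WT PBS (SD, n = 5), a change of -0.37 (adjusted p = 0.00987). Tnc, the tenascin-C gene, was also called lower, at 126.7 ± 19.65 CPM against 204.7 ± 23.39 CPM. Spp1, which encodes osteopontin and is abundant in injured tubules, was the ligand that rose, at 22140 ± 2327 CPM against 15420 ± 2280 CPM (log2 fold change 0.51, adjusted p = 0.0143). Of 30 further adhesion adaptors and kinases, 7 fell, none rose and 10 had positive fold changes, where 10.5% of all genes were called. With the length offset 4 of the 30 fell, where 7.34% of all genes were called. The smallest p-values were those of Actn4 (-0.31, adjusted p = 0.00873), Flna (-0.53, adjusted p = 0.0103) and Fyn (-0.31, adjusted p = 0.0128). Of 11 genes for latent TGF-β and for cell-surface ligands, 1 fell, Lrrc32, which tethers latent TGF-β (-0.53, adjusted p = 0.0239). Nrros (-0.26, adjusted p = 0.0581) and Ltbp1 (-0.28, adjusted p = 0.107) came next.

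Marker genes of several cell types were called in the same comparison, where 5.4% of all genes were called lower and 5.13% higher. Of 8 fibroblast and myofibroblast markers, 4 fell (Acta2, Col15a1, Pdgfra and Pdgfrb), and the summed level of the list was 1240 to 1663 CPM in CD5L KO PBS and 1634 to 2096 CPM in WT PBS. Of 8 endothelial markers, 5 fell (Plvap, Pecam1, Cdh5, Flt1 and Tie1), 4 with the length offset, with summed levels of 693.8 to 774 CPM and 844 to 957 CPM, which did not overlap. Of 8 urothelial markers, all 8 had positive fold changes, none was called, and the sums were 252 to 402 CPM against 43.9 to 257 CPM. All 8 markers of injured or failed-repair tubule had positive fold changes with 1 called (Spp1), and the median log2 fold change was 0.15. Their sums, 23130 to 28350 CPM against 14730 to 20760 CPM, did not overlap. Most of each sum was Spp1 alone, at 20170 to 25290 CPM against 12330 to 18050 CPM, so the sums mainly restate that gene. All 6 podocyte markers had negative fold changes with 1 called (Wt1), or 0 with the length offset, and the sums were 549.8 to 635 CPM against 622 to 727 CPM. The part of these cell types in the changes of Itga8, Itga9, Itga7, Ddr2 and Vcl was not tested.

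**Figure D4:**
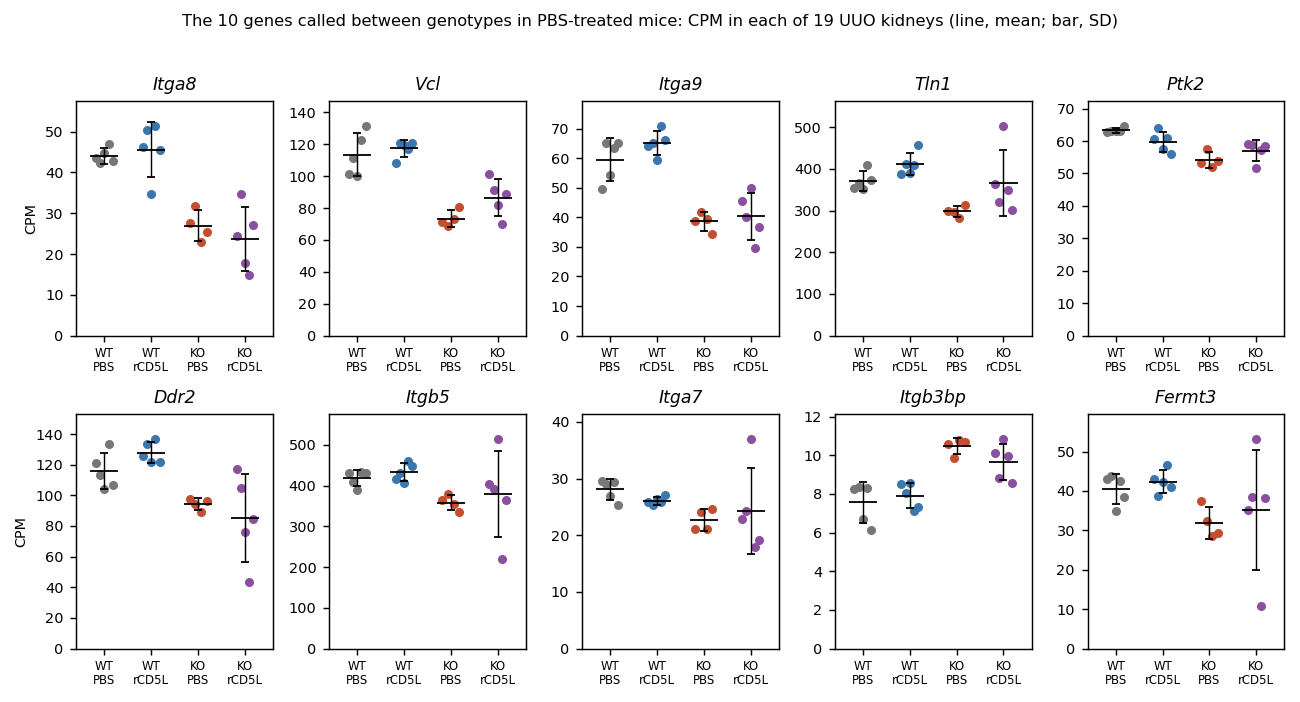
CPM of the 10 genes called between genotypes under PBS, in each of the 19 UUO kidneys by group, with the group mean as a line and the SD as a bar. For Itga8 all 9 CD5L KO kidneys lie at 34.6 CPM or below and all 10 WT kidneys at 34.7 CPM or above.

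Promoter sequence was read for the 3 called genes with the smallest p whose RefSeq start lay within 150 bases of the start in the count table with the window outside the gene (GRCm38.p6, 250 bases before the start, in the direction of the gene), to show what the windows of genes that fell together hold. Capitals mark matches on either strand to AP-1 (TGANTCA), TEAD (GGAATG), Sp1 (GGGCGG) and the CArG box of serum response factor (CCWWWWWWGG, where W is A or T). The windows are chr2:12301945-12302194 on the minus strand for Itga8, chr14:20929148-20929397 on the plus strand for Vcl and chr16:33829415-33829664 on the plus strand for Itgb5.
Itga8: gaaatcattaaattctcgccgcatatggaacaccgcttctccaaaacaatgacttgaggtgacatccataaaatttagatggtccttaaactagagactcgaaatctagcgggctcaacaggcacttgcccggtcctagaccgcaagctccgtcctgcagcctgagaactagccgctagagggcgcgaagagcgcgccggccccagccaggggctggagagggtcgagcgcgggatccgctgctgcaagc
Vcl: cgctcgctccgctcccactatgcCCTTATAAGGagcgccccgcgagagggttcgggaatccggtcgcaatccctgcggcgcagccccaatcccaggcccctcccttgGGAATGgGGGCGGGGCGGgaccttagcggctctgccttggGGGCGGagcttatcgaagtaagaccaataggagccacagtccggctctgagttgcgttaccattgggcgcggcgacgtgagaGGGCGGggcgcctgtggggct
Itgb5: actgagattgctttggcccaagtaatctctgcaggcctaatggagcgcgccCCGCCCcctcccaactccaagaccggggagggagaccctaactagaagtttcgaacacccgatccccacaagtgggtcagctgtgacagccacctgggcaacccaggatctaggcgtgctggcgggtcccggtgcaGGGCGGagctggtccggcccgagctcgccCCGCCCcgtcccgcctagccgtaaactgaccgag

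The Vcl window held the CArG sequence CCTTATAAGG at -227 to -218 from the start, a TEAD match and 4 Sp1 matches, 2 of which share a base. The Itgb5 window held 3 Sp1 matches and the Itga8 window held none of the 4 motifs. Over 32851 windows of all genes, 1.5% held the CArG box, 12.6% the TEAD letters, 32.7% the Sp1 letters and 6.7% the AP-1 letters. These windows had no rule on position and no limit per gene, so their shares are not a like comparison for the windows chosen below. Of the 49 genes, 35 had a RefSeq window and 17 met the rule on position, and of these 17 the CArG box was in 1 and the Sp1 letters were in 9 (52.9%). A match to letters is a description of the window and says nothing of binding.

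The same genotype comparison in mice given rCD5L was added after the data had been seen, and it shares no kidney with the comparison under PBS. It called 0 of 47 genes with edgeR, where 0% of all 17360 genes were called. DESeq2 called 3 of the 47 and 0.387% of all genes, and limma on FPKM called 0. At an unadjusted p under 0.05 there were 7 of 47, all lower, where 17.8% of all genes passed. Without CD5L KO rCD5L replicates 3 and 4 there were 16, 15 lower and 1 higher, where 21.5% of all genes passed. Itga8 was at 46.2, 50.5, 34.7, 51.3 and 45.4 CPM in WT rCD5L and at 24.3, 34.6, 17.7, 14.9 and 27.1 CPM in CD5L KO rCD5L, with no overlap by a narrow margin (log2 fold change -0.96, SE 0.214, adjusted p = 0.26). Itga9 was at 64.0, 65.3, 59.5, 70.7 and 66.0 CPM against 45.5, 40.0, 50.0, 29.7 and 36.6 CPM (log2 fold change -0.71, SE 0.129, adjusted p = 0.26), and Vcl at 108, 121, 119, 117 and 121 CPM against 101, 91.4, 81.7, 69.9 and 89.0 CPM (log2 fold change -0.46, SE 0.111, adjusted p = 0.26). After these came Ddr2 (-0.61), Itga4 (-0.68) and Itgav (-0.32), with adjusted p-values of 0.26. With single kidneys left out they ranged from -0.74 to -0.44, -0.83 to -0.50 and -0.40 to -0.24. Ddr2, Itga4 and Itgav were not called without CD5L KO rCD5L replicates 3 and 4. Neither Itga9 nor Vcl overlapped between groups, nor did Ddr2 or Itgb3bp, so that 5 of 47 did not overlap, 4 lower and 1 higher in the knockout, where 7.52% of all genes did not (2.9% lower and 4.62% higher).

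All 10 genes called under PBS had the same sign of change under rCD5L, as had 92.3% of all genes called under PBS, and 4 of the 10 reached an unadjusted p under 0.05 (44.8% of all genes called). Without CD5L KO rCD5L replicates 3 and 4, 5 of the 47 genes were called, all lower, where 3.58% of all genes were. These were Itga9 (log2 fold change -0.69, adjusted p = 0.00467), Vcl (-0.33, adjusted p = 0.0209), Itga8 (-0.68, adjusted p = 0.0245), Tln1 (-0.34, adjusted p = 0.0326) and Itga11, a collagen-binding chain (-0.82, adjusted p = 0.0391). With all kidneys the adjusted p was 0.46 for Tln1 and 0.81 for Itga11. The Itga11 call rested on leaving out replicate 3, at 7.6 CPM against 1.84 to 2.23 CPM in the rest of its group. The median over the 47 genes was -0.22 with all kidneys and -0.13 without these. With all kidneys and the length offset it was -0.13 (Spearman's rho between length and log2 fold change -0.28).

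**Figure D5:**
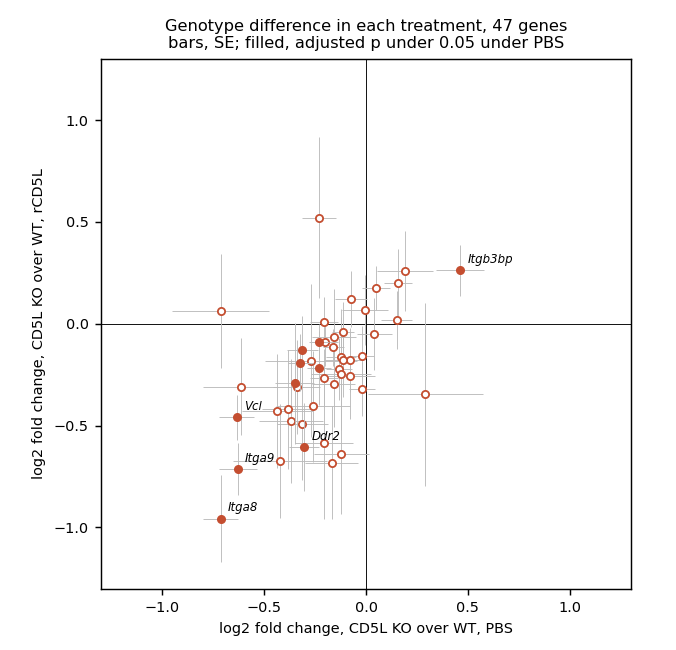
Log2 fold change of CD5L KO over WT for 47 genes, in mice given PBS (x axis) and rCD5L (y axis), with SE as bars and filled points for genes called under PBS. All 10 filled points have the same sign on both axes, and Itga8 lies lowest at -0.71 and -0.96.

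Treatment of CD5L KO mice with rCD5L, the question of whether the missing protein given back shifts these genes, called 0 of 47 with edgeR (0% of all 17467 genes), 0 with DESeq2 and 0 with limma on FPKM. At an unadjusted p under 0.05 there were 2 of 47, Itgbl1 and Ilk, where all genes gave 2.87%, and no gene of the 47 separated the groups, where 2.35% of all genes did (1.1% lower and 1.25% higher under rCD5L). Without replicate 4 there were 6 of 47 at an unadjusted p under 0.05 (5.54% of all genes), and without replicates 3 and 4 there were 8, 6 higher and 2 lower (9.76% of all genes). Itgbl1, a secreted protein with integrin-like repeats, was at 29.0, 34.2, 14.7 and 33.0 CPM under PBS and at 12.7, 13.3, 18.2, 1.99 and 10.5 CPM under rCD5L (log2 fold change -1.29, SE 0.462, unadjusted p = 0.0179, adjusted p = 0.897). Without replicates 3 and 4 it was at -1.19 (unadjusted p = 0.000564, adjusted p = 0.357). Vcl was at 71.0, 68.7, 73.2 and 80.7 CPM under PBS and at 101, 91.4, 81.7, 69.9 and 89.0 CPM under rCD5L (log2 fold change 0.23, SE 0.129, adjusted p = 0.897). Without replicates 3 and 4 the Vcl difference was 0.36 (unadjusted p = 0.000709, adjusted p = 0.357), and still 0 of 47 genes were called.

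Itga8 was at -0.19 on the log2 scale with all kidneys and at 0.09 without replicates 3 and 4. With all kidneys, Itgb1 was at -0.18, Itgav at -0.15, Itgb6 at -0.19, Ptk2 at 0.07, Itgam at -0.07, Itgb2 at 0.09, Ddr1 at 0.20, Ddr2 at -0.16, Sdc1 at 0.03, Pxn at 0.23 and Tln1 at 0.29. Without replicates 3 and 4 the same genes were at 0.0045, -0.00061, -0.20, 0.12, 0.19, 0.37, 0.02, 0.12, 0.06, 0.09 and 0.14, and none was called in either fit. The Ddr1 value rested on replicate 3, at 523 CPM against 277 to 328 CPM in the other 4 kidneys of its group, and was 0.0077 without that kidney alone. Tln2, the talin of muscle and brain, gave the largest fold change upward, 0.79 (SE 0.441), which rested on replicate 4 alone, at 302 CPM against 67.8, 71.7, 85.8 and 68.7 CPM in the other 4 kidneys. Without replicate 4 it was 0.11. This comparison and the genotype comparison under PBS share the CD5L KO PBS kidneys, so opposite signs in them are not independent.

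In WT mice, rCD5L against PBS called 0 of 47 genes with edgeR (0% of all 17455), 1 with DESeq2 (3.82% of all genes) and 0 with limma on FPKM. At an unadjusted p under 0.05 there were 9 of 47, 6 higher and 3 lower, where all genes gave 16%. Spearman's rho between length and log2 fold change was 0.24 here, and with the length offset there were 7 of 47, 3 higher and 4 lower (2440 of 17455 genes). With 1 kidney left out there were 5 (without WT rCD5L replicate 5, 2213 of 17636 genes) to 12 (without WT PBS replicate 1, 2685 of 17607 genes). Itga4, the α4 chain that lets leukocytes bind VCAM-1 and fibronectin, had the smallest p. It was at 20.4, 19.9, 18.3, 20.2 and 16.8 CPM under PBS and at 26.2, 21.2, 25.9, 24.4 and 23.8 CPM under rCD5L, and it was the only one of the 47 whose groups did not overlap, where 3.6% of all genes did not (1.69% higher and 1.91% lower under rCD5L). The log2 fold change was 0.36 (SE 0.0796, adjusted p = 0.104) by edgeR and 0.35 (adjusted p = 0.00980) by DESeq2. All 9 T and NK cell markers had positive fold changes in the same comparison with none called, and their summed level was 40.5 to 87.4 CPM under PBS and 54.9 to 102 CPM under rCD5L. The part of these cells in the Itga4 value was not tested. Dag1 (0.21, adjusted p = 0.161), Ddr1 (0.16, adjusted p = 0.167), Tln1 (0.16, adjusted p = 0.199), Itgav (0.15, adjusted p = 0.203) and Fermt2 (-0.14, adjusted p = 0.248) followed.

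Log2 fold changes of other genes in WT mice were -0.04 for Itgb1, -0.06 for Itgb6, 0.04 for Itgam, 0.12 for Itgb2, 0.06 for Itga8, -0.10 for Ilk, -0.07 for Ptk2, 0.15 for Ddr2 and -0.06 for Sdc1, none of them called. The median over the 47 genes was 0.04, and 0.01 with the length offset. The interaction of genotype and rCD5L called 0 of 47 genes with edgeR (0% of all 18454), DESeq2 and limma, and 1 of 47 had an unadjusted p under 0.05, Ilk, at 0.79 (SE 0.357, adjusted p = 0.731), where all genes gave 6.25%. Itgav (-0.28), Ptk2 (0.16), Tln2 (0.77), Pxn (0.23) and Itga4 (-0.50) followed, with adjusted p-values from 0.731 to 0.734. Without CD5L KO rCD5L replicates 3 and 4 these were -0.15, 0.20, -0.01, 0.08 and -0.12, and Ilk was 0.78. The Tln2 value rested on replicate 4, without which it was 0.06. None of the matrix ligands, adaptors or TGF-β genes was called in either treatment comparison or in the interaction.

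Alpha and beta chains reach the surface only as pairs. The transcripts of 12 partner pairs, Ilk with Parva and with Lims1 among them, were compared across the 19 kidneys. Values were log2 CPM, with a permutation test of 100000 draws and adjustment over the 12 pairs. The leukocyte chains come first. For Itgax and Itgb2, Pearson's r was 0.976 (permutation p = 1e-05, the smallest that the draws can give, adjusted p = 6e-05) and Spearman's rho was 0.921. The r was 0.854 without the 2 kidneys farthest from the median of Itgax, CD5L KO rCD5L replicate 4 among them, and 0.971 after subtracting group means. For Itgal and Itgb2, r was 0.875 (permutation adjusted p = 6e-05), rho was 0.761 and r was 0.719 without the 2 farthest kidneys. For Itgam and Itgb2 the r of 0.9 (permutation adjusted p = 0.002) dropped to 0.55 without them, and rho was 0.637.

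Itgae and Itgb7, also leukocyte chains, gave 0.816 (permutation adjusted p = 0.0033) and 0.808 after subtracting group means. Their r was 0.355 without the 2 farthest kidneys, CD5L KO rCD5L replicate 4 and WT PBS replicate 1, and 0.777 without CD5L KO rCD5L replicates 3 and 4. For the epithelial pair Itga6 and Itgb4, r was 0.572 (permutation adjusted p = 0.0338) and 0.631 without the farthest kidneys, and for Itga4 and Itgb7 it was 0.611 (permutation adjusted p = 0.0338), 0.731 without the 2 farthest kidneys, CD5L KO rCD5L replicates 3 and 4, and 0.118 without replicate 4 alone. Itga8 and Itgb1 gave 0.613 (permutation adjusted p = 0.0154) with a rho of 0.242, and -0.064 without CD5L KO rCD5L replicates 3 and 4, so that relation rested on these kidneys. Itgav gave -0.185 with Itgb6 (permutation adjusted p = 0.54) and -0.153 with Itgb8 (permutation adjusted p = 0.571), and Itga5 gave 0.278 with Itgb1 (permutation adjusted p = 0.282). All 3 signs turned without CD5L KO rCD5L replicate 4, at 0.186, 0.462 and -0.227, and without replicates 3 and 4 the values were -0.223, 0.234 and 0.335. In the ILK complex, Ilk gave 0.522 with Parva (permutation adjusted p = 0.0338) and 0.276 after subtracting group means, and -0.094 with Lims1 (permutation adjusted p = 0.722). The pairs share chains, kidneys and depth, so they are not independent of each other. Genes that are not partners were not compared, so no value here is particular to partners. The part of cell number in these correlations was not tested.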

How the data were processed

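Gene counts and FPKM values for 19 kidneys were used as deposited. The authors used Trimmomatic for trimming, HISAT2 for alignment (GRCm38) and featureCounts for counting reads per gene (deposited raw counts) and also deposited FPKM, which they normalized to gene length and library size; versions and strand settings are not given in the sources used here. Genes passed filterByExpr with a minimum count of 10. Each comparison used only the groups compared (the interaction all 4), TMM scaling and edgeR's quasi-likelihood test (edgeR 4.0.16, limma 3.58.1, DESeq2 1.42.0, R 4.3.3), with Benjamini-Hochberg adjustment over all genes tested. The authors' own test was DESeq2, which was run as an alternative. CPM are TMM-scaled over 19 kidneys. FPKM were tested with limma on log2(FPKM + 1) after a minimum mean of 0.1. SE is on the log2 scale. The edgeR steps were tested on simulated data. Gene coordinates equal those of GENCODE vM21.

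Groups were taken from the labels. Each kidney came from its own mouse. Same-numbered kidneys correlated at -0.0491 to 0.174 in their deviations from group means in the 3 comparisons planned between 2 groups. The main fits did not use the numbers as pairs, and the labels do not say whether they mark pairs. Members and gene lists were chosen with earlier results of these data known. Named by rule were genes called in a comparison, or else the 6 with the smallest p, and 11 fixed genes (Itgb1, Itgav, Itgb6, Itgam, Itgb2, Itga8, Ilk, Ptk2, Ddr1, Ddr2 and Sdc1), together with the 3 smallest p of each pathway list. Alternatives were DESeq2, RLE factors, other count filters, all 19 kidneys in 1 fit, a replicate block, a gene length offset, limma on FPKM and each kidney left out. The comparison of genotypes under rCD5L and the fits without CD5L KO rCD5L replicates 3 and 4 were added after seeing the data. Promoter windows came from RefSeq (GRCm38.p6).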

Additional observations from a re-analysis of the deposited data

Results flagged for a closer look

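Within each group, the kidney at either end was set against the rest of its group by Dixon's ratio of gap to range at the 95% critical value, in 188 sets of 4 or 5 kidneys (47 genes in 4 groups). Chance flags about 1 in 20 such sets, and 25 stood out. CD5L KO rCD5L replicate 4 gave 8 of them: Itgam at 4.83 CPM, Itgax at 16.9, Itgb4 at 18.5, Itgb2 at 19.5, Itgb7 at 6.13, Itgbl1 at 1.99 and Fermt3 at 10.8 CPM were low, and Tln2 at 302 CPM was high. CD5L KO rCD5L replicate 3 gave 5: Lims1 at 65.8, Ptk2 at 51.6 and Fermt2 at 100 CPM were low, and Itga11 at 7.6 and Ddr1 at 523 CPM were high.

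The other 12 were spread over the groups. In CD5L KO PBS they were Parva at 173 CPM in replicate 2, Itgb4 at 53.7 and Itgb1bp1 at 26.8 CPM in replicate 4, Itgb8 at 115 CPM in replicate 1 and Itgb2 at 43.5 CPM in replicate 3. In WT PBS they were Lims1 at 103 CPM in replicate 3, Ptk2 at 64.5 CPM in replicate 5, Itgal at 31.6 and Itgb1bp1 at 31.5 CPM in replicate 1, and Sdc3 at 143 CPM in replicate 2. In WT rCD5L they were Sdc1 at 146 CPM in replicate 2 and Vcl at 108 CPM in replicate 1. No difference between the genotypes in the response to rCD5L was called.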

How the results depend on the processing

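Between genotypes under PBS, 10 genes were called. The number was 17 by DESeq2 (17.8% of all genes), 1 with all 19 kidneys in 1 fit (0.065%) and 6 by limma on FPKM with no filter (3.06%). With each kidney left out it was 6 to 13, where 1015 to 2062 of all genes were called. With the replicate block the number was 14 (12.1% of all genes). There Itgb3bp was not called, and Itgb2 (adjusted p = 0.0147), Itgb3, Itga5, Itgal (-0.49, adjusted p = 0.0429) and Itga6 were. With the gene length offset it was 7 (1290 of 17579 genes), and 10 with block and offset (1475 of 17579). The block changed no count of calls in the other comparisons. Whether replicate numbers pair the kidneys was not settled. Same-numbered kidneys correlated at -0.0491 to 0.117 in this comparison, and 2 of 4 were best matched to their own number. The share of all genes called was 10.5% without the block and 12.1% with it. With the gene length offset the median was -0.13, and -0.14 with block and offset. In WT mice DESeq2 called 1 gene. Between genotypes under rCD5L the count of 0 became 3 by DESeq2 (0.387% of all genes), 4 with all 19 kidneys in 1 fit (8.51% of the 47, where 7% of all genes were called) and 5 without CD5L KO rCD5L replicates 3 and 4 (3.58%), a choice made after seeing the data. Why these counts differ was not tested. Of 1739 values of single genes under alternatives, 1609 kept direction and side of the threshold and 68 changed sign, with none of these called.

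The sign changes were as follows, as log2 fold changes. Under PBS, Itgav was 0.0083 with the replicate block, 0.069 with the length offset and 0.090 with both. For rCD5L in CD5L KO mice, Itgb2 was -0.15 with the block, -0.13 with block and offset, -0.042 on FPKM with or without a filter and -0.059 at a pseudocount of 0.1, and Sdc1 was -0.091, -0.079, -0.062 and -0.069 under the same settings. Without replicates 3 and 4, Itgb1 was 0.0045, Itgam 0.19, Itga8 0.092 and Ddr2 0.12. In the interaction without them, Tln2 was -0.012, Itgb1 0.054, Itgam 0.16, Itgb2 0.26, Itga8 0.037 and Ddr1 -0.14, and on FPKM Sdc1 was -0.016 with or without a filter and -0.022 at a pseudocount of 0.1. Between genotypes under rCD5L, Itgb1 was 0.031 without replicates 3 and 4, Itgb6 -0.0047 with the block and -0.020 or -0.023 on FPKM, and Ptk2 0.11 with the offset, alone or with the block.

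With single kidneys left out, values spanned 0 as follows. Under PBS the range was -0.055 to 0.0067 for Itgb1 and -0.066 to 0.010 for Itgav. For rCD5L in CD5L KO mice it was -0.19 to 0.17 for Itgam, -0.045 to 0.32 for Itgb2, -0.29 to 0.017 for Ddr2 and -0.16 to 0.22 for Sdc1, and in WT mice -0.099 to 0.0025 for Itgb6, -0.026 to 0.19 for Itgam, -0.25 to 0.048 for Ilk and -0.14 to 0.0018 for Sdc1. In the interaction it was -0.25 to 0.13 for Itgam, -0.15 to 0.20 for Itgb2, -0.13 to 0.13 for Ddr1 and -0.081 to 0.28 for Sdc1, and between genotypes under rCD5L -0.084 to 0.11 for Itgb6, -0.082 to 0.22 for Ilk and -0.25 to 0.12 for Sdc1. Ilk, with 12 to 45 counts per kidney, is limited by depth, and Itgad and Itgb1bp2, which were not tested, lay lower still.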

Other observations

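The level order in WT PBS kidneys was close to continuous: of 48 neighbouring pairs in the order, 36 had ranges that overlapped and 12 did not. Itgb1bp2 and Itgad were lowest, at medians of 0.121 and 0.0162 FPKM.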
